A study of Mus musculus with 24 samples.

Results

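The regions described here are 320 stretches of mouse liver chromatin that carried at least 4 times more acetylation of histone H3 at lysine 27 (H3K27ac) in fasted than in refed animals, out of 63686 regions measured. They were chosen by their measured values: a mean of at least 50 normalized reads over all 12 libraries, and a ratio of at least 4 between the fasted mean and the refed mean, each with 1 added. Of the 63686 regions, 40633 reached the mean of 50, and 373 of these passed the same ratio in the opposite direction. The choice pooled both genotypes, 3 libraries of each on either side of the ratio. The level after fasting or refeeding is therefore given as a description, and tests are given for knockout against control.

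All mice were male C57BL/6J animals with floxed Gata4 (Gata4 fl/fl), injected at 8 weeks of age and killed 7 days later, at 9 weeks. Knockout mice received AAV8-Tbg-Cre, a virus in which the hepatocyte-selective Tbg promoter drives Cre recombinase, and control mice received an empty AAV8, which carries no Cre. Fasted mice went without food for 12 h overnight. Refed mice went without food for 12 h in the daytime and then had 12 h of a diet with 69% sucrose and 10% fat overnight. All were killed between 9 and 10 am, so the clock time of killing was shared, but the clock time of the last meal cannot be told apart from the feeding state. Each of the 4 groups, control or knockout and fasted or refed, had 3 libraries. The names of a group's libraries share 1 number that no other group has; the labels do not say what it marks, and it cannot be told apart from the group. Nothing else in the labels ties replicates to separate cages or days, and p-values measure only the spread between these libraries.

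H3K27ac is laid down by the acetyltransferases p300 and CBP at active enhancers and promoters, and it rises and falls with their activity. In fasted liver, low insulin with high glucagon and glucocorticoid, and fatty acids that bind PPARα, bring enhancers of fatty acid oxidation and gluconeogenesis into use. GATA4, made by hepatocytes and by liver endothelium, is a DNA-binding activator with zinc fingers and recognizes short GATA motifs.

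The libraries had 22150912 to 30419424 reads in the 63686 regions. Replicates correlated at r of 0.967 or more and differed by more than counting noise, so none was a duplicate of another. The hepatocyte gene Alb had a region with a mean of 2518 over the 12 libraries, and Apoa1 one of 17336. None of 53 listed markers of endothelial, stellate, macrophage, lymphocyte and bile duct cells was the nearest gene of a member. Of these 53, 39 had a region. The 10 hepatocyte markers listed had no member either, among 88 regions near 8 of them. Members were 0.502% of all regions, so these lists do not tell which cells the members belong to. No region of Gata4 was a member. H3K27ac at Gata4 does not measure the deletion. The deposited scaling put the median region 0.10 log2 higher in refed knockout than in refed control liver.

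The members lay far from gene starts. By the authors' annotation, 158 of 320 were intergenic (49.4%, against 31.5% of the 40633 regions with a mean of at least 50) and 141 were intronic. Only 3 were annotated as promoters (0.938% against 9.75%). The median distance to the nearest transcription start site (TSS) was 28992 bases, compared with 13057 for regions with a mean of at least 50. Of the members, 72 (22.5%) lay more than 100 kb from any start, against 8.55%. Widths were alike, with medians of 2475 and 2494 bases. A GATA4 peak within 500 bases was annotated for 14 members (4.38%), against 11.1% of regions with a mean of at least 50.

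At 8 loci 3 or more members lay within 50 kb of each other, and 80 members lay in 34 groups of 2 or more. The densest was a 32.9 kb stretch, chr7:147889375-147922275 (mm9), with 6 members between the olfactory receptor gene Olfr541 and Cyp2e1, which encodes an ethanol- and ketone-oxidizing cytochrome P450. Intronic members of the spindle checkpoint gene Mad1l1 formed a group of 4. Groups of 3 lay near the omega-hydroxylase genes Cyp4a14 and Cyp4a10, near Dynlrb2, Adam24, Tox, Lncenc1 and Ofcc1.

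A TSS lay inside only 8 members, those of Cyp4a10, Cyp4a14, Olfr541, Prox2, Defb1, Ctcfl, Rhobtb1 and the predicted gene Gm15694. The Olfr541 member is also the strongest of the 14 with a GATA4 peak, and the start of that gene is shown for this reason (RefSeq, GRCm38.p6, chr7:140704003-140704302, plus strand, 250 bases before to 50 after the start). Capitals mark the only match to AGATAA, the motif searched here on both strands for this factor, which starts at base 99 of the window. Other letters around GATA, such as the TGATAA in this window, were not searched or marked.

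Olfr541: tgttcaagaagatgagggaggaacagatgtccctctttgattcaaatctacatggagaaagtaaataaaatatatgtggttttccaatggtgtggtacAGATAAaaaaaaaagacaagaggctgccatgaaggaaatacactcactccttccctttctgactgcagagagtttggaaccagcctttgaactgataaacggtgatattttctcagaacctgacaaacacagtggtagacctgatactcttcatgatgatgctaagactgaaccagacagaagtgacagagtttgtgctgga

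The letters AGATAA occurred in 11.2% of 32851 mouse promoters of that length. The RefSeq windows of Prox2 and Rhobtb1 did not hold them. A match is a description of the letters and not of binding.

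H3K27ac at the members was high in every fasted library and low in every refed one. The median member stood at 213, 189 and 229 normalized reads in control fasted liver and at 208, 229 and 226 in knockout fasted liver. It stood at 25.5, 21.8 and 25.3 in control refed liver and at 45, 36.4 and 51.1 in knockout refed liver. The 2 fasted groups overlapped, while each refed knockout library was above each refed control library. The members took 0.396 to 0.476% of the reads in regions in the fasted libraries, 0.0535 to 0.0689% in refed controls and 0.0823 to 0.108% in refed knockouts. In 311 of the 320 members all 6 fasted libraries were above all 6 refed ones. The members were chosen on these same 12 libraries, so this separation is a description and no test.

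**Figure D1:**
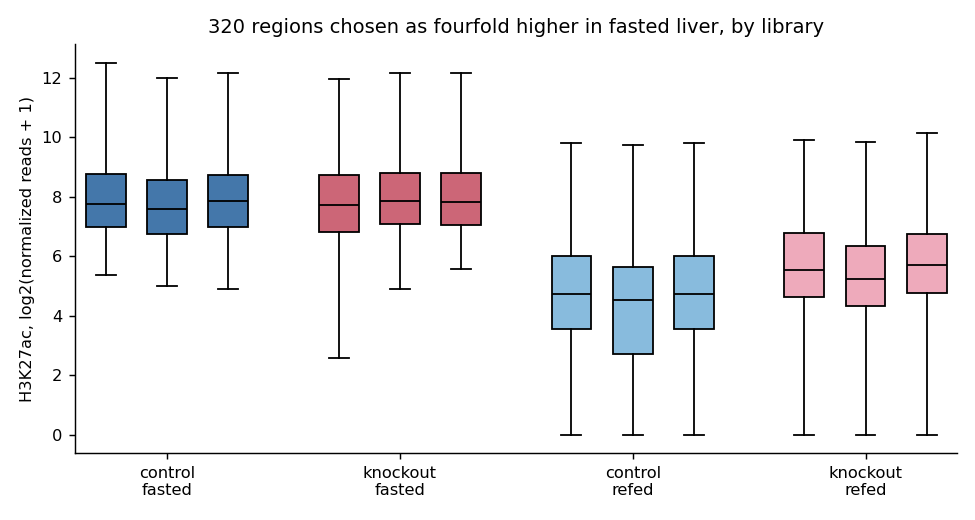
H3K27ac level of the 320 members in each of the 12 libraries, as log2(normalized reads + 1); boxes span the quartiles, the black line is the median and whiskers reach the lowest and highest member. The medians of the refed knockout libraries (36.4 to 51.1) lie above those of the refed controls (21.8 to 25.5), and the fasted groups overlap.

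The ratio that chose the members had a median of 5.43 and reached 199. It lay between 4 and 6 for 191 members and above 10 for 44. Just inside the ratio were regions near 1700024P16Rik (4.009), Pdzrn3 (4.015) and Camsap2 (4.017). Just outside it were regions near 2610307P16Rik (3.9996), As3mt (3.998) and Pantr1 (3.996). Members near Fam133b, Gda and Idnk had means of 50.1, 50.2 and 50.2, just over the threshold. Regions with means of 49.997, 49.8 and 49.8 just missed it, the first near D7Ertd443e and the other two near Cyp4a10.

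Taken by genotype, the fasted to refed ratio had a median of 7.56 in control and 4.49 in knockout liver, and it was larger in control for 277 of 320 members. The level kept is given here as the refed group mean in percent of the fasted group mean, and the groups were different mice. In control liver the median member kept 12.8% of its fasted level after refeeding (quartiles 7.68% and 16.9%). In knockout liver it kept 21.9% (quartiles 16.3% and 25.7%). Beside this, limma called 317 members lower in refed control liver (16.8% of all regions were) and 297 lower in refed knockout liver (11.4% of all), calls that the choice of the members fixed.

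**Figure D2:**
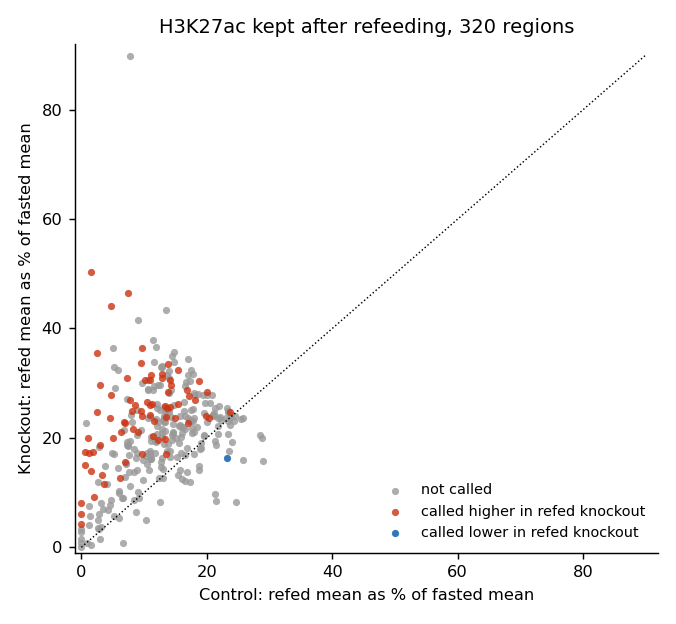
Level after refeeding as a percent of the fasted level in control (x axis) and knockout (y axis), 1 point per member, group means of 3 libraries. Most points lie above the dotted line of equality, where the medians are 12.8% in control and 21.9% in knockout; colours mark the calls in refed liver.

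The strongest member lay 19430 bases upstream of Adam24, a testis-expressed metalloprotease gene, at chr8:41733229-41748774. It held 5795, 4089 and 4513 reads in control fasted, 3995, 4560 and 4541 in knockout fasted, 799, 844 and 883 in control refed and 957, 921 and 1135 in knockout refed liver. Both refed groups lay far below both fasted groups, and the refed knockouts were all above the refed controls (log2 0.25 ± 0.11, SE; adjusted p = 0.268, limma). A second Adam24 region, chr8:41764791-41767189, had the largest ratio. It held 132 to 230 reads in control fasted and 149 to 239 in knockout fasted liver, and 0 in all 6 refed libraries. Against a floor of 3 reads per library its fasted mean was at least 73.7-fold higher in control and at least 59.9-fold higher in knockout.

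The other members with the highest means lay near Eci2, Cyp4a10, Slc6a21, Nppc (C-type natriuretic peptide), Gfra1, Arel1, Col14a1, Olfr541 and Mad1l1, at means of 822 to 1898 over the 12 libraries. After Adam24, the largest ratios were those near Chl1 (101), Trmt10b (65.8), Anks1b (57.5), Olfr372 (56), Clstn2 (43.5), Pawr (43.1), Fendrr (35.1), Tekt2 (33.8) and Pknox2 (33.2). All 10 but Fendrr and Pknox2 stood at under 6 reads in both refed groups, and 8 members were at 0 in all 3 control refed libraries against 1 in knockout refed liver.

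Fatty acid oxidation and ketogenesis genes had 5 members among 186 regions, where members were 0.502% of all regions. The 5 were nearest to 4 of the 43 genes of the list with a region. Of the 5, 3 lay in 1 stretch of 45.2 kb at Cyp4a14 and Cyp4a10. Cyp4a10, Cyp4a14 and Cyp4a32 are omega-hydroxylases, a family of classical PPARα targets, and Eci2 encodes a peroxisomal enoyl-CoA isomerase. The Eci2 member, chr13:35105632-35116785, lay 25195 bases upstream of the gene. It held 3222, 2981 and 2826 reads in control fasted, 2908, 2987 and 3436 in knockout fasted, 883, 444 and 783 in control refed and 922, 613 and 773 in knockout refed liver. Genotypes overlapped in both feeding states (refed log2 0.17 ± 0.20, adjusted p = 0.71).

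The Cyp4a10 member, chr4:115184411-115195631, is 11221 bases wide and spans the promoter. It held 1992, 1424 and 2054 reads in control fasted and 1527, 1884 and 2099 in knockout fasted liver. It fell to 260, 175 and 266 in control refed liver and to 673, 497 and 572 in knockout refed liver. The fasted groups overlapped (log2 0.02 ± 0.18), and the refed knockouts were all above the refed controls (1.32 ± 0.18, adjusted p = 0.0040, limma). The control kept 12.8% of its fasted level and the knockout 31.6%.

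The Cyp4a14 member, chr4:115163157-115171913, covers that gene's start. It held 140, 95.6 and 222 reads in control refed and 459, 230 and 346 in knockout refed liver, groups that did not overlap (log2 1.20 ± 0.28, adjusted p = 0.041). In fasted liver the values were 1128 to 1744 in control and 1022 to 1483 in knockout. A small region downstream of Cyp4a10, chr4:115206371-115208353, held 0 in all 3 control refed libraries and 12.4, 3.41 and 4.31 in knockout refed liver. The mean of these was at least 2.53-fold over the floor (adjusted p = 0.013, limma). The member near Cyp4a32 overlapped between genotypes (5.85 to 15.8 against 6.83 to 27 in refed liver).

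The other 13 gene lists had 0 to 3 members each. Gluconeogenesis enzymes (117 regions), autophagy and lysosome genes (135) and clock genes (103) had none, where members were 0.502% of all regions. Of the 117 regions near gluconeogenesis enzymes, 43 were called lower in refed control liver, where 16.8% of all regions were. Of the regulators of fasting, Ppargc1a, a coactivator of gluconeogenic and oxidative genes, had 1 member, 513313 bases from its start, at 61, 69.6 and 64.8 reads in control refed and 88.9, 101 and 84 in knockout refed liver. Those groups did not overlap, and the difference missed the threshold (log2 0.48 ± 0.22, adjusted p = 0.264). Slc38a2, an amino acid transporter gene that stands in the glucocorticoid and the amino acid lists, had 1 member 157830 bases upstream (0.82 ± 0.23, adjusted p = 0.078). The member near Nr5a2, encoding the bile acid regulator LRH-1, overlapped between genotypes (1.50 ± 0.57, adjusted p = 0.177).

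Xenobiotic genes had 3 members, a pair near the glutathione transferase gene Gstt2 and 1 near Cyp2e1, none of them called in a genotype contrast. Near the interleukin 1 receptor antagonist gene Il1rn, control refed values were 0.888 to 9.19 and knockout refed values 10.1 to 31.2 (1.83 ± 0.53, adjusted p = 0.088). The growth hormone list gave Mup20, a major urinary protein gene, and Cux2, a repressor gene of female-biased liver expression.

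Lipid synthesis genes were among the nearest genes too, with 3 members among 151 regions near lipogenesis and glycolysis genes. Refeeding with sucrose is a lipogenic state. Of the 151 regions, 67 were called higher in refed control liver and 44 lower, with a median log2 change of 0.30. Of all 63686 regions, 8378 were called higher and 10705 lower. Acaca, encoding acetyl-CoA carboxylase 1, had a pair of intronic members. The one at chr11:84134725-84136956 held 134, 124 and 126 reads in control fasted and 239, 134 and 195 in knockout fasted liver. It held 0 in all 3 control refed libraries and 21.4, 17.1 and 7.54 in knockout refed liver. The knockout mean was at least 5.78-fold over the floor of the controls (adjusted p = 0.00081, the smallest of any member). The second, chr11:84031694-84034352, held 30.6 to 50.1 reads in control refed and 59.6 to 72.8 in knockout refed liver, without overlap (0.71 ± 0.19, adjusted p = 0.064).

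The fatty acid desaturase gene Fads2 had 1 member, with overlapping genotypes. Cyp51, the lanosterol demethylase gene of cholesterol synthesis, had a pair. The one at chr5:4079924-4085345 held 543, 609 and 550 reads in control fasted and 752, 791 and 877 in knockout fasted liver. It held 134, 117 and 154 in control refed and 179, 183 and 235 in knockout refed liver. Knockouts were above controls in both states, called in refed liver (0.56 ± 0.14, adjusted p = 0.049) and not in fasted liver (0.51 ± 0.14, adjusted p = 0.116).

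**Figure D3:**
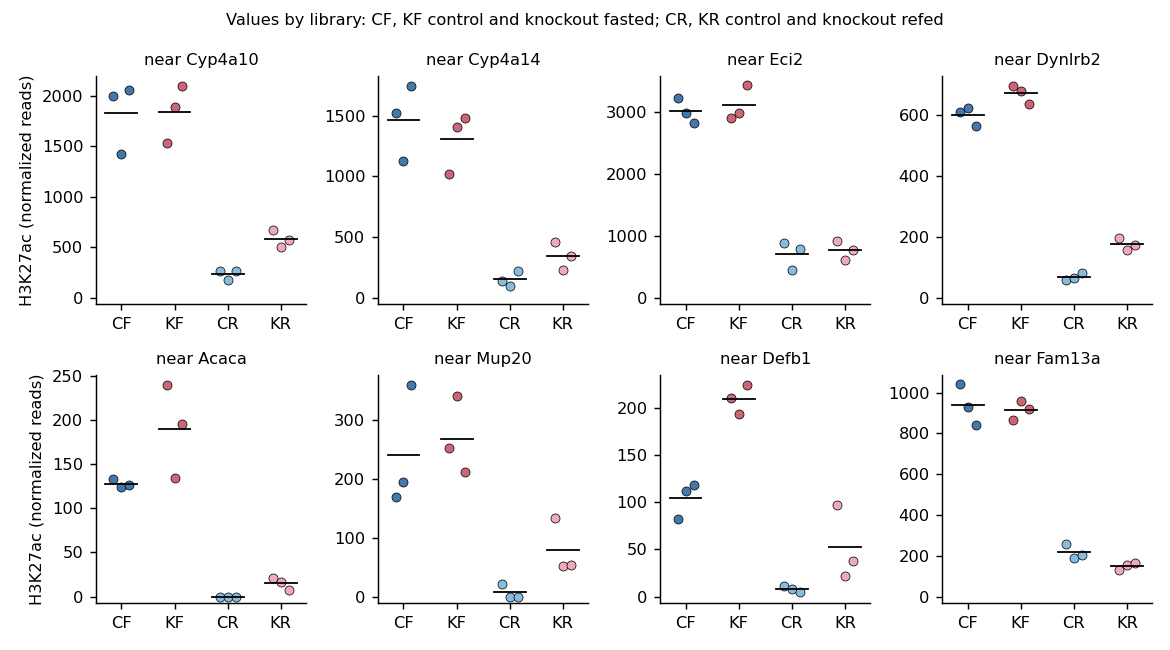
Normalized reads by library at 8 members named by their nearest gene; points are libraries, lines are means of 3, each panel has its own linear scale. Refed knockout points lie above refed control points near Cyp4a10, Cyp4a14, Dynlrb2, Acaca, Mup20 and Defb1, overlap near Eci2 and lie below near Fam13a.

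In fasted liver no member was called between knockout and control, where limma called 0.312% of all regions higher and 0.245% lower. At an unadjusted p under 0.05, 21 members were higher (8.65% of all regions were) and 9 lower (4.65% of all). edgeR also called 0. The median log2 difference was 0.09 over the members and 0.04 over all regions, and single members ranged from -2.19 to 1.17. The smallest adjusted p was that of the Cyp51 member above. The authors' deposited table for fasted liver listed 23 members (7.19%, against 3.17% of all regions), 14 of them higher and 9 lower in knockout. Of all 2021 regions it listed, 1207 were higher.

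In refed liver 72 members (22.5%) were called higher in knockout, where 1.73% of all regions were. One was called lower, where 0.297% of all were. The median log2 difference was 0.84 over the members and 0.10 over all regions; it is 0.83 with members at 0 in all control refed libraries set at their bound. It was positive at 285 of 320 members and at 40516 of all 63686 regions. At an unadjusted p under 0.05, 195 members were higher (14.3% of all regions) and 3 lower (2337 of all 63686 regions). In 130 members (40.6%) all 3 knockout refed libraries were above all 3 controls, which held for 17.6% of all regions.

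**Figure D4:**
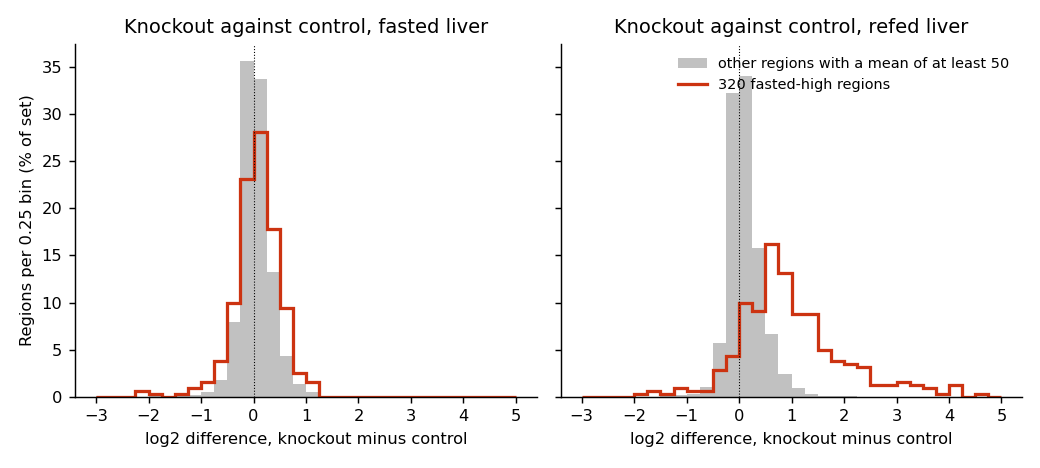
Distribution of the log2 difference of knockout minus control in fasted (left) and refed (right) liver for the 320 members (red line) and the other regions with a mean of at least 50 (grey), as percent of each set per bin of 0.25; values beyond the axis are put in the end bins. The members' median is 0.09 in fasted and 0.84 in refed liver.

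The 72 went from a median of 19.8 reads in refed controls to 58.9 in refed knockouts, and all 72 stayed under their own fasted knockout mean. Their fasted difference had a median of 0.16. They were 34 of the 158 intergenic and 30 of the 141 intronic members. Of the 14 members with a GATA4 peak, 2 were among them, near Dact2 and Camsap2, named here after their values were seen. The median refed difference was 0.92 with a GATA4 peak and 0.84 without one.

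The largest differences that did not overlap were at members with few reads in refed controls. The Mup20 member, chr4:61650671-61653959, held 169, 195 and 358 reads in control fasted, 252, 340 and 211 in knockout fasted, 21.7, 0 and 0 in control refed and 134, 51.2 and 52.8 in knockout refed liver. Fasted groups overlapped and refed groups did not (log2 4.67 ± 0.85, adjusted p = 0.016). Mup genes are near-identical copies, so reads at such a locus are uncertain.

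The Platr5 member, near a noncoding RNA gene, held 5.01, 0 and 0 in control refed and 30.4, 18.2 and 64.6 in knockout refed liver (4.23 ± 0.67, adjusted p = 0.0095). At Mad1l1, chr5:140649772-140653497 held 0, 4.64 and 0 in control refed and 34.9, 27.3 and 25.8 in knockout refed liver (4.08 ± 0.58, adjusted p = 0.0056). The other Mad1l1 members differed by 0.73 to 1.37 and missed the threshold.

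Near Fendrr, a long noncoding RNA gene, control refed values were 0 in all 3 libraries and knockout refed values were 21.4, 2.28 and 20.5. Their mean was at least 5.54-fold over the control floor (adjusted p = 0.011, limma), while the value of 2.28 lies under that floor of 2.65. Members near the melanoregulin gene Mreg (3.44 ± 0.59) and the cysteine dioxygenase gene Cdo1 (3.13 ± 0.61) complete, with Dynlrb2 and Acaca, the 8 genes with the largest differences, predicted genes passed over. The floor of 3 reads equals 2.65 normalized reads in control refed and 3.34 in knockout refed liver, so log2 values against controls near it depend on the 1 added.

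Dynlrb2, encoding a dynein light chain, had 4 members, 3 of them in a group 141782 to 160218 bases upstream and all 3 called. The widest, chr8:118884253-118890014, held 57.7, 63.1 and 81.7 reads in control refed and 197, 157 and 172 in knockout refed liver, without overlap (1.37 ± 0.14, adjusted p = 0.00084). In fasted liver it held 564 to 624 in control and 637 to 696 in knockout. Its 2 neighbours differed by 3.57 ± 0.61 and 3.28 ± 0.57 (adjusted p = 0.013 for both).

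Members well above the floor were called as well. Of the 96 members with a control refed mean of at least 50, 24 were called higher. In classes of the refed mean over both genotypes, a different cut, from 50 to 1000, 19.4 to 35.1% of members and 1.50 to 2.77% of non-members were called higher. At the intronic Crk member, chr11:75499405-75504579, values were 134, 113 and 111 in control refed and 252, 189 and 279 in knockout refed liver (0.99 ± 0.14, adjusted p = 0.0056); Crk encodes a signalling adaptor. Slc6a21 went from 231, 200 and 204 to 306, 306 and 299 (0.52 ± 0.10, adjusted p = 0.016). The Nppc member went from 186, 315 and 257 to 358, 414 and 402 (0.66 ± 0.15, adjusted p = 0.034).

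A pair of members covered Defb1, a beta-defensin gene. The one over the start, chr8:22886280-22888038, held 11.7, 8.35 and 5.33 in control refed and 96.7, 21.6 and 37.7 in knockout refed liver (2.28 ± 0.41, adjusted p = 0.015). Its fasted values were 82.3, 112 and 118 in control and 210, 194 and 224 in knockout, also without overlap (1.01 ± 0.41, adjusted p = 0.294). The member at the promoter of Ctcfl, a germline paralogue of CTCF, held 0, 10.2 and 0 in control refed and 40.5, 11.4 and 12.9 in knockout refed liver (3.11 ± 0.74, adjusted p = 0.045).

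The member called lower lay 47742 bases upstream of Fam13a, at chr6:59019953-59024524. It held 256, 190 and 206 in control refed and 132, 154 and 163 in knockout refed liver, without overlap (-0.53 ± 0.13, adjusted p = 0.049). The 6-member locus by Olfr541 and Cyp2e1 had no call. Its strongest members were at 242 to 425 in control refed against 195 to 340 in knockout refed liver (-0.39 ± 0.22), and at 211 to 408 against 239 to 314 (-0.16 ± 0.20).

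The genotype difference in refed liver grew with the feeding ratio among all regions with a mean of at least 50. Its median log2 was 0.08 for ratios of 1 to 1.5, 0.24 for 1.5 to 2, 0.38 for 2 to 3 and 0.56 for 3 to 4, regions that are not members. It was 0.82 for members with ratios of 4 to 6, 0.81 for 6 to 10 and 1.13 above 10. In fasted liver the same classes had medians of 0.03 to 0.20. Among regions higher after refeeding, the median in refed liver was 0.01 to 0.12 in every class. Of the 373 with a ratio of at least 4, limma called 2 higher in refed knockout (0.536%, against 1.73% of all regions). It called 7 lower (1.88% against 0.297%). In fasted liver, where those 373 were low, their median was 0.26. There 10 were called higher (2.68%, against 0.312% of all regions) and 3 lower (0.804% against 0.245%).

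**Figure D5:**
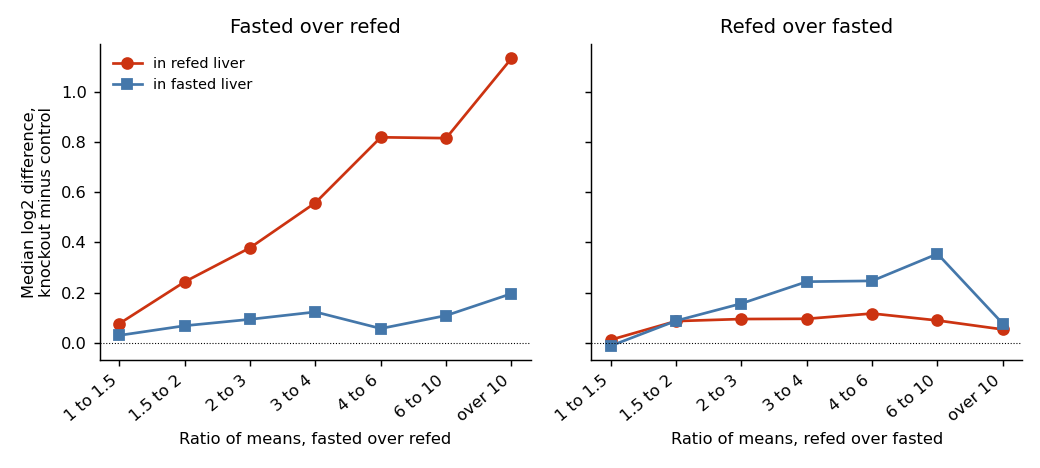
Median log2 difference of knockout minus control by the ratio of means, for regions with a mean of at least 50 that were higher fasted (left) or higher refed (right); red circles are refed and blue squares fasted liver, and classes from 4 upward on the left are the members. On the left the refed median goes from 0.08 in the lowest class to 1.13 in the highest.

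Low read levels moved with genotype in refed liver over all regions, by less than at the members in each class given here, with the smallest gap in the lowest class. Non-members with refed means of 10 to 20, 20 to 30 and 30 to 50 had median log2 differences of 0.33, 0.26 and 0.22, and members in these classes had 1.12, 0.98 and 0.93. With refed means of 100 to 200 the medians were 0.14 and 0.69. Under 10, they were 0.77 and 0.90. Reads were also worth more in the refed knockout libraries (1.08 to 1.14 normalized reads each) than in the refed controls (0.836 to 0.928). Marker lists of other cells moved as well: the summed level of regions near Kupffer and macrophage markers was 1384 to 1724 in refed control and 1731 to 1990 in refed knockout libraries, and that of stellate and fibroblast markers 3345 to 3415 and 2650 to 2798. Regions near hepatocyte markers summed to 68139 to 74916 and 64802 to 66726, and those near lymphocyte markers to 1701 to 1829 and 1574 to 1696. Endothelial and bile duct sums overlapped. The part of depth and of cell makeup in the result was not tested; fewer cells of a type and less signal per cell cannot be told apart in whole liver.

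The call count rested on the libraries, the scaling and the variance model. It was 16 in a fit of the refed libraries alone (0.807% of all regions were called higher) and 28 by limma without a trend (0.631%). The main fit called 1.73% of all regions higher. The count of members was 26 without knockout refed replicate 1 (0.455% of all regions), 34 without knockout refed replicate 3 (0.628%) and 47 without control refed replicate 2 (1.01%). It was 22 (6.88%, against 0.344% of all regions) after quantile normalization and 35 (10.9% against 0.686%) by edgeR on whole reads. Of the 72, 14 were called under all 21 alternatives and all 72 had a positive difference in each of them. The 72 were picked as higher in these same libraries, so the unchanged sign is no separate support. How many of all regions were called under every alternative was not counted. The 14, chosen after their values were seen, include the members near Cyp4a10, Dynlrb2, Crk, Mad1l1 and Platr5 above, and others near Nup210l, Mybpc3, Trim24, Rhbdd2 and Lrrc28.

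Whether the genotype difference itself changed with feeding was tested as an interaction, the refed minus fasted change in knockout less that in control. No member passed, and 0.0157% of all regions were called higher and 0.00785% lower. The smallest adjusted p was 0.060, at the Acaca member (3.39 ± 0.54) and at the Dynlrb2 member (1.21 ± 0.20). The median was 0.78 over the members and 0.06 over all regions. At an unadjusted p under 0.05, 116 members (36.3%) were higher, compared with 6.35% of all regions. At the same threshold 2 members were lower, and 2030 of all 63686 regions. Of the members, edgeR with either scaling called 0. In the authors' deposited table of interaction results 37 members were listed (11.6%, against 1.53% of all regions), all 37 with a positive log2 value. Of all 972 regions listed there, 663 were positive. The authors' deposited table for refed liver listed 90 members (28.1%, against 6.59% of all regions), 87 of them higher in knockout. Of all 4200 regions it listed, 2974 were higher.

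Averaged over both feeding states, 53 members were higher in knockout (2.99% of all regions were) and 1 was lower (0.89% of all). Of the 53, 48 were among the 72 called in refed liver. The 53 became 24 to 34 without control fasted replicate 1, any knockout fasted replicate, or knockout refed replicate 1 or 3, each left out alone. In those fits 0.983 to 2.14% of all regions were called higher. The authors' deposited table of the genotype effect listed 0 of the 320 members, and 0.473% of all regions; its fold changes were not used, since their sign was opposite to knockout minus control in nearly all rows. The largest averages were at Mup20 (2.44 ± 0.60), Acaca (2.22 ± 0.27), Fendrr (2.05 ± 0.41), Mad1l1 (1.97 ± 0.41) and Dynlrb2 (1.94 ± 0.43), with adjusted p from 0.0014 to 0.039. Mreg (1.91 ± 0.42) and Platr5 (1.89 ± 0.48) were also among the largest.

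The 273 nearest genes had 1055 further regions with a mean of at least 50, near 229 of them. These moved the same way after refeeding in control liver, with a median log2 change of -0.42 against 0.03 for all such regions, and 45.9% were called lower against 18.6%. The 46 annotated promoters among them had a median of -0.01. Between genotypes in refed liver the 1055 had a median of 0.10, and 3.41% were called higher, compared with 2.10% of all regions with a mean of at least 50.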

How the data were processed

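H3K27ac chromatin immunoprecipitation was sequenced in 12 liver libraries, 3 in each of 4 groups; the 12 input libraries were not analysed here. Per the submitters' processing notes, Bowtie2, MACS2, DiffBind, edgeR and HOMER were used, on mm9. The deposited signal is the normalized read count per region. From the values, each is a whole number of reads times 1 factor per library, 0.836 to 1.15. The authors' deposited tables of comparisons give a log2 fold change and an FDR (p-value adjusted over regions), used for counts of listed members.

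Values were tested with limma 3.58.1 (R 4.3.3) as log2(value + 1) on all 63686 regions, 12 libraries in 1 fit, with a mean-variance trend; adjusted p is Benjamini-Hochberg with a threshold of 0.05, and ± after a log2 difference is its standard error. The script was tested on simulated data. Floors are 3 reads per library and cover counting error only. Alternatives were edgeR 4.0.16 on whole reads with TMM or DESeq2 1.42.0 size factors, other scalings, pseudocounts and filters, and leaving out each library.

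Members and gene lists were chosen with earlier results of these data known. Named were the 10 members with the highest mean and the 10 with the largest ratio, up to 8 per contrast and direction without overlap, up to 4 per gene list, those near the thresholds, and genes with 4 or more members. The search of promoters for motifs was added later.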

Additional observations from a re-analysis of the deposited data

Results flagged for a closer look

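In the authors' deposited table of the interaction, 37 members were listed, whereas limma called none. At 3 members, with means of 52.2 to 60.8 reads, every knockout library was below every control in fasted liver and above every control in refed liver. Taken alone, the fasted pattern held at 15 members and at 4552 of all 63686 regions. The refed pattern alone held at 130 members and at 11217 of all regions. How many of all regions had both was not counted, so the 3 have no background share. Near BC031361 the log2 difference was -0.42 in fasted and 1.99 in refed liver. Near A430090L17Rik it was -0.26 and 2.82, and near Trpm3 -0.33 and 1.16. The interaction missed the threshold at all 3, with adjusted p of 0.106, 0.284 and 0.31 (limma). The authors' deposited interaction results list the regions near BC031361 (FDR 0.000134) and Trpm3 (FDR 0.0405), and not the one near A430090L17Rik.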

How the results depend on the processing

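The number of members was 525 with a mean of at least 25, 186 with a mean of at least 100, 534 by the control libraries alone, 248 by the knockout libraries alone, and 290 to 401 without 1 library. Called higher in refed knockout were 41 members after median-ratio rescaling (0.744% of all regions were), 22 after quantile normalization (0.344%) and 28 without the trend (0.631%). There were 16 in a fit of the refed libraries alone (0.807% of all regions), and 35 and 33 by edgeR with TMM (0.686%) and DESeq2 size factors (0.625%). Leaving out 1 library gave 26 to 83, with 0.455 to 1.89% of all regions called higher. The 1 called lower was 0 with a pseudocount of 0.5, median-ratio rescaling, no trend, the refed libraries alone and edgeR, and 0 to 1 without 1 library. Averaged over feeding states, 33 were higher after median-ratio rescaling (1.71% of all regions were), 20 after quantile normalization (1.17%) and 19 without the trend (1.12%). Without 1 library 24 to 67 were higher, with 0.983 to 3.15% of all regions. The 1 lower was 0 without the trend and 0 to 1 without 1 library. In fasted liver 1 was higher and 1 lower in a fit of the fasted libraries alone, and 0 to 1 without 1 library. The interaction called 1 with a pseudocount of 5 or 0.5 or no trend, and 0 to 9 without 1 library. It called 9 without control refed replicate 1 (0.0738% of all regions were higher) and 8 without control fasted replicate 2 (0.151%). The refed median over members stayed positive (0.58 to 0.99); over all regions it was 0.02 after median-ratio rescaling. The causes of these shifts were not tested. No paired analysis was possible because groups share no number in the library names. Groups of 3 libraries and refed values near the floor limit single calls.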

Other observations

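An intronic member of the noncoding RNA gene Lncenc1, chr13:98222182-98224049, which has a GATA4 peak, kept the largest share of its fasted level in knockout liver (89.7%, against 7.7% in control). It was singled out after its values were seen. It held 160, 170 and 201 reads in control fasted and 44.2, 28.6 and 46.5 in knockout fasted liver, and 31.8, 9.28 and 0 in control refed and 57.4, 22.8 and 26.9 in knockout refed liver. Fasted groups did not overlap and refed groups did, and neither difference passed the threshold (-2.15 ± 0.83, adjusted p = 0.273, and 2.28 ± 0.83, adjusted p = 0.162, limma). The authors' deposited table for fasted liver lists this region with a log2 value of -2.19 and an FDR of 5.67e-17, the smallest of the 23 members in that table.

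Averaged over feeding states, the 1 member called lower in knockout was near 1700012B07Rik and also has a GATA4 peak (-1.19, adjusted p = 0.035, limma).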
